A study of Mus musculus with 6 samples.

Results

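The respiratory chain of the inner mitochondrial membrane is described here through the genes of its complexes I to V, in primary mouse hepatocytes exposed to cyclosporin A. Members were the rows of the expression table whose gene symbol begins with Nduf, Uqcr, Cox4 to Cox8 or Atp5, together with Sdha, Sdhb, Sdhc, Sdhd, Cyc1 and Cycs. The rule matched 79 rows. The 8 Ndufaf rows encode assembly factors of complex I and were set aside with that class, which left 71 members among 16331 rows. These comprise 70 genes of subunits, counting cytochrome c and the Ndufa4 paralogue Ndufa4l2, and Cox7a2l. The product of Cox7a2l is known as a factor for supercomplexes of complexes III and IV, a role not measured in these cells. The 70 genes fall into 32 for complex I, 4 for complex II, 7 for complex III, 1 for cytochrome c, 16 for complex IV and 10 for complex V. Subunits without a named row, and those encoded in mitochondrial DNA, were not analysed here.

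Cultures labelled CsA were exposed to 10 µM cyclosporin A for 48 hours, and cultures labelled DMSO to 0.5% of that solvent as the vehicle. Each group had 3 arrays with 1 sample per array, and the labels describe 3 experiments that each used a different animal. The titles of the 3 CsA samples share 1 prefix, whereas those of the 3 DMSO samples each have their own, and what the prefix stands for is not given. All cells were hepatocytes of male C57Bl6 mice, kept between collagen layers in a serum-free medium with insulin, glucagon and hydrocortisone. Cultured hepatocytes stand in for the liver only without its blood flow and neighbouring cells. The sources used here give no age, and do not say whether CsA was dissolved in the same solvent.

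Complex I oxidises NADH and complex II oxidises succinate, and both pass electrons to ubiquinone. Complex III hands them to cytochrome c, a small mobile protein, and complex IV gives them to oxygen. Complexes I, III and IV pump protons, and complex V, the ATP synthase, uses the resulting gradient to make ATP. Hepatocytes depend on this chain for the ATP that urea formation, glucose synthesis and bile export require. Many of its nuclear genes are known targets of the factors NRF1 and GABP, whose sites lie close to the start of transcription.

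Promoter sequences are shown for the 3 members that passed the test between CsA and DMSO, since these carry the difference described further on. They come from RefSeq on GRCm38.p6 and hold the 250 bases before the annotated start. Ndufv3 encodes a small accessory subunit of complex I, with the window at chr17:31519865-31520114 on the plus strand. Sdha encodes the flavoprotein of complex II, with the window at chr13:74350241-74350490 on the minus strand. The Cox7a2l window lies at chr17:83514334-83514583 on the minus strand. Capitals mark any match to the NRF1 motif (GCGCA, any base, GCGC), the GABP motif CCGGAAG, the motif TCAAGGTCA of oestrogen-related receptors, or the YY1 motif AANATGGCG, each read on both strands.
Ndufv3: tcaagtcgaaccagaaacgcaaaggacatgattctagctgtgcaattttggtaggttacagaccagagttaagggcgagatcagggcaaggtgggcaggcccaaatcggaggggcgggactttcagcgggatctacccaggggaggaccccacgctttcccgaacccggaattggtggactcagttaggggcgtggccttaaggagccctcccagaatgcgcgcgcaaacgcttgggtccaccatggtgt
Sdha: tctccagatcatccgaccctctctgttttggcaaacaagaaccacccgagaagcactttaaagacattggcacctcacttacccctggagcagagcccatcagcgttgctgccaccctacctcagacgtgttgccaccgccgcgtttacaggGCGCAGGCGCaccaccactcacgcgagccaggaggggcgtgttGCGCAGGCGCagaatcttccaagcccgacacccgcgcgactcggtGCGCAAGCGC
Cox7a2l: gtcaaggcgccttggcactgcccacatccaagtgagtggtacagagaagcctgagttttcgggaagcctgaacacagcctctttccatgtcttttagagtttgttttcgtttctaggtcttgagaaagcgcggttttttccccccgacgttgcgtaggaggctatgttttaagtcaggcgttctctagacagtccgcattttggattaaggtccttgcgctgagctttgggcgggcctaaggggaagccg
Sdha held 3 NRF1 matches, which began 98, 55 and 10 bases before the start, while Ndufv3 and Cox7a2l held none of the 4 motifs in these windows. An NRF1 match was present in 9 of the 55 subunit promoters in the RefSeq table (16.4%) and in 3.86% of all 27025 promoters. A GABP match stood in 7 subunit promoters (12.7%) and in 7.05% of all. The oestrogen-related receptor motif was found in 1 subunit promoter (0.366% of all promoters) and the YY1 motif in 1 (1.12% of all). Besides Sdha, the NRF1 motif occurred before Sdhd, Cox6a1, Atp5k, Ndufa5, Ndufa8, Ndufa11, Ndufs5 and Ndufs6. A motif match is a description of these letters, and of these 9 genes Sdha alone passed the expression test.

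The arrays report log2 values from RMA, a method that evens out array distributions and narrows differences at the low end of the scale. Values in the table ran from 2.44 to 15.3, and array medians from 6.70 to 6.78. The 7 measured hepatocyte markers had a mean of 11.06 to 11.43 in CsA arrays and 12.30 to 12.59 in DMSO arrays. Of these 7, 5 fell, against 9.05% of all rows, which was not tested for a part in the results below. The 33 measured markers of macrophages, stellate cells, endothelium, bile ducts and lymphocytes averaged 4.89 to 4.98 in CsA arrays and 4.98 to 5.20 in DMSO arrays, and no single value of theirs exceeded 7.36. Of these 33, 4 were lower and 0 higher after CsA (9.05% of all rows were lower and 9.55% higher). Their part in the differences below was not tested. Because the samples are bulk RNA, fewer hepatocytes and less RNA per cell cannot be told apart. Both arrays numbered 3 read high for the chain. Replicate 3 was the highest of its group for 57 of 70 subunits in CsA and for 45 of 70 in DMSO, against 49.7% of all rows in each group.

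After CsA the transcripts of the chain stayed close to their DMSO levels while 18.6% of all rows changed. Of 70 subunits, 2 were lower, 0 were higher and 68 did not pass (limma, adjusted p under 0.05 over all rows), so that 2.86% were called. Ndufv3 fell 1.59-fold and Sdha 1.35-fold. At an unadjusted p under 0.05, 10 subunits were lower and 1 was higher (15.7%, against 31.2% of all rows). Cox7a2l, the member that is not a subunit, rose 1.46-fold. With the replicate number as a block, 9 subunits were lower and 1 was higher, against 28.7% of all rows called in that fit.

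Precision was sufficient to bound most members whose rows stood well above the bottom of the scale. The 95% interval of the difference lay inside a 1.5-fold change, which is 0.58 on the log2 scale, for 62 of 70 subunits (88.6%), and for 63.5% of all rows. Each of the 8 subunits outside this range reached past it on the lower side, namely Uqcrc1, Ndufs1, Ndufa4l2, Sdhc, Sdhd, Sdha, Ndufv2 and Ndufv3, and 0 reached past it on the higher side. A difference of at least 1.5-fold was seen in 2 subunits (2.86%, against 13.3% of all rows), Ndufv3 and Ndufa4l2. The median size of the difference was 0.12 for subunits and 0.18 for all rows, with median standard errors (SE) of 0.12 and 0.13. The subunit rows were bright, with a median level of 11.90 against 6.75 for all rows. Of the 9 subunit rows with a mean level under 8, all but Ndufa4l2 had intervals inside a 1.5-fold change. Dim signal narrows differences, so these intervals say little of their transcripts. Among the 5793 rows with a mean level of at least 8, the share called was 30.6%. Of these brighter rows, 45.9% had an interval inside a 1.5-fold change and 21.2% differed by at least 1.5-fold. Their median size of difference was 0.30. The median signed difference was -0.06 for subunits, 0.04 for all rows and 0.10 for the brighter rows.

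**Figure D1:**
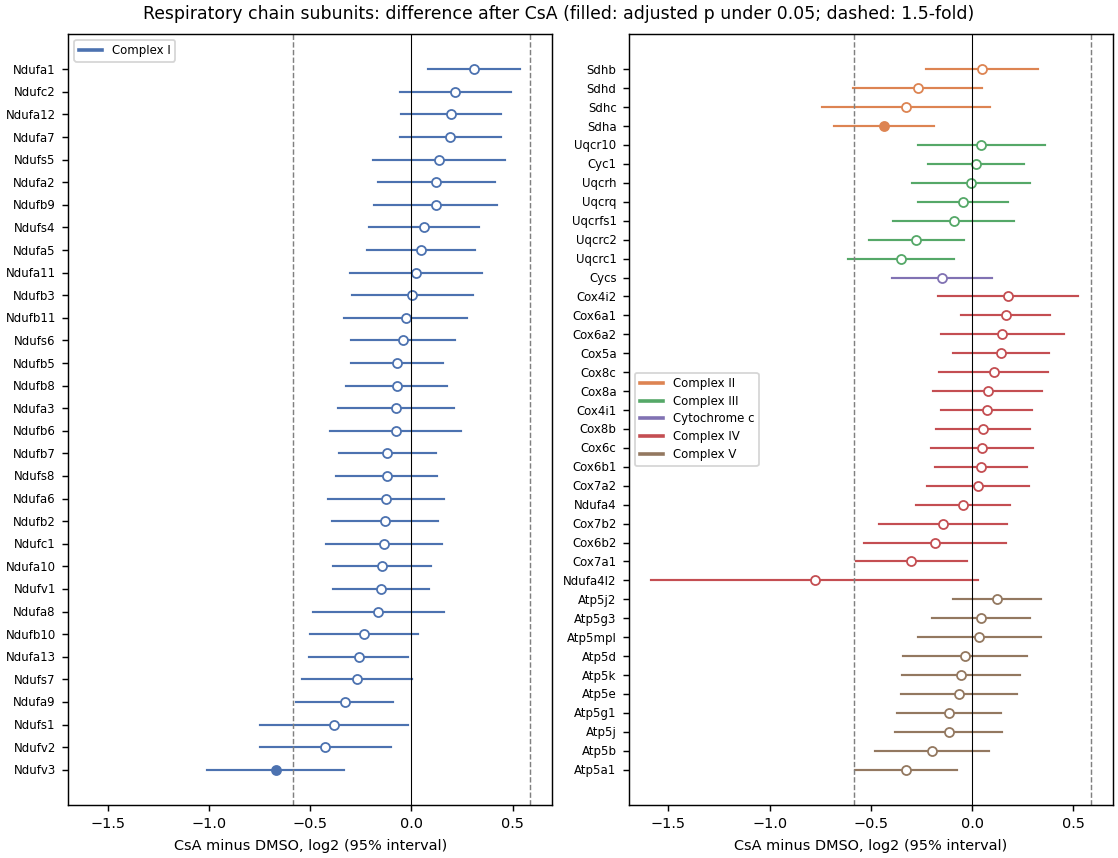
Difference between CsA and DMSO on the log2 scale for each of the 70 subunits, with its 95% interval from limma, sorted within each complex. Filled points mark Ndufv3 and Sdha, which passed the threshold, and dashed lines mark a 1.5-fold change in either direction. Of the 70 intervals, 62 lie inside the dashed lines, among them those of dim rows such as Cycs and Atp5g1.

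Within complex I, 1 of 32 subunits was lower and 0 were higher (3.1%, against 18.6% of all rows). Differences ran from -0.67 to 0.31, and 6 subunits had an unadjusted p under 0.05 (18.75%, against 31.2% of all rows). Ndufv3 lies in the matrix arm near the NADH-oxidising flavoprotein. Its values were 10.60, 10.48 and 11.00 in CsA arrays, against 11.32, 11.30 and 11.47 in DMSO arrays. All CsA values were below all DMSO values, and the CsA array numbered 3 stood highest in its group. The difference was -0.67 ± 0.15 (log2, SE, n = 3 per group, limma adjusted p = 0.0149). Its call was lost when CsA replicate 1 was left out (adjusted p = 0.0562), and likewise for CsA replicate 2 (adjusted p = 0.0642).

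The 5 measured core subunits of complex I, which carry the flavin and iron-sulphur clusters of the electron path, all had negative differences with a median of -0.27. None passed in limma without the block, and 2 reached an unadjusted p under 0.05 (31.2% of all rows did). Ndufs1, the largest iron-sulphur subunit, had 10.33, 10.13 and 9.81 in CsA arrays, against 10.61, 10.56 and 10.24 in DMSO arrays. The groups overlapped, but each CsA value was below the DMSO value of the same number. The difference was -0.38 ± 0.16 (limma adjusted p = 0.144, and adjusted p = 0.0192 with the replicate block). Ndufv2, an iron-sulphur subunit beside the flavin site, had 11.37, 11.23 and 11.69 in CsA arrays, against 11.73, 11.85 and 11.99 in DMSO arrays. Here the groups did not overlap. Its difference was -0.42 ± 0.14 (limma adjusted p = 0.073, and adjusted p = 0.0192 with the block). Ndufs7, Ndufv1 and Ndufs8 differed by -0.27, -0.15 and -0.12 and did not pass in either fit.

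Accessory subunits, which surround and stabilise that core and include Ndufv3, had differences on both sides of 0. The median was 0.05 for the 9 in the matrix arm and -0.08 for the 18 in the membrane arm. Ndufa9, which sits where the arms meet, had 10.95, 10.83 and 11.03 in CsA arrays, against 11.32, 11.28 and 11.20 in DMSO arrays. CsA values all lay below DMSO values, with a difference of -0.33 ± 0.11 (limma adjusted p = 0.0627, and adjusted p = 0.0418 with the block). Ndufa1, a short membrane-arm subunit, had 13.33, 13.31 and 13.35 in CsA arrays, against 12.96, 12.98 and 13.11 in DMSO arrays. It was the only subunit above DMSO with an interval that excluded 0, at 0.31 ± 0.10 (limma adjusted p = 0.0634, and adjusted p = 0.0379 with the block). It also passed after repeated quantile normalization (adjusted p = 0.0222) and after centring of the arrays (adjusted p = 0.0301). Ndufc2 came next at 0.22 ± 0.12 and did not pass (limma adjusted p = 0.273). The difference between core and accessory subunits was not tested.

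**Figure D2:**
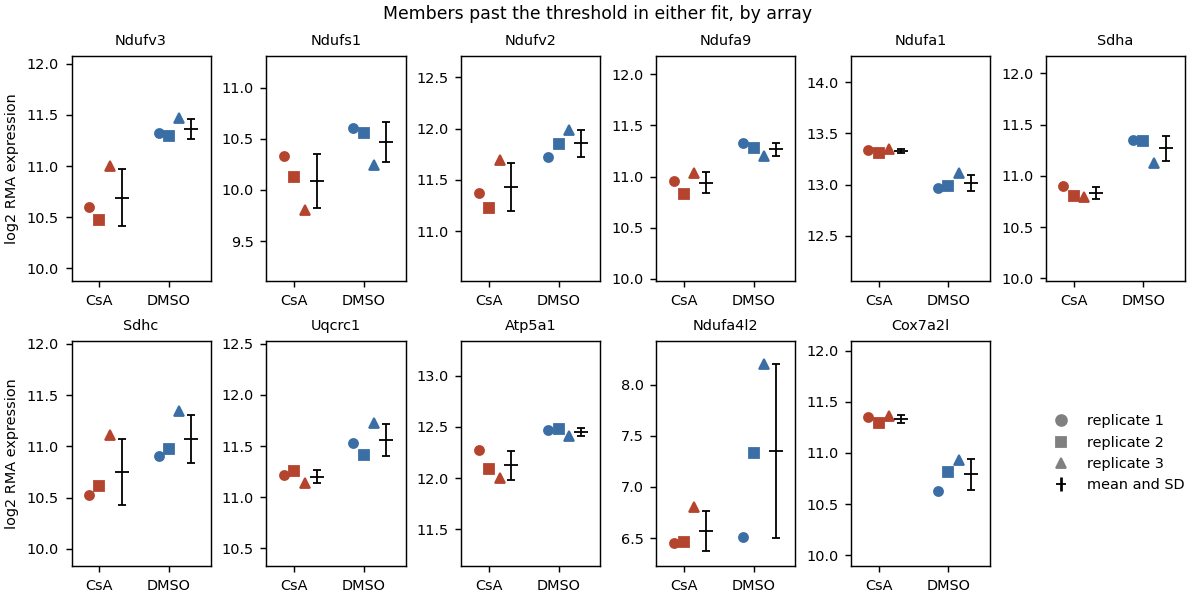
Log2 RMA expression of the 11 members past the threshold with or without the replicate block, by array, with CsA left of DMSO. Symbols mark the replicate number, and black bars give the mean and SD of 3 arrays. Every panel spans the same log2 range, and groups overlap for Ndufs1, Sdhc and Ndufa4l2.

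Complex II had the lowest mean difference of the complexes, and 1 of its 4 subunits fell (25%, against 18.6% of all rows called). Sdha, the catalytic flavoprotein that oxidises succinate, had 10.91, 10.81 and 10.79 in CsA arrays, against 11.35, 11.34 and 11.13 in DMSO arrays. The groups were apart by more than their SDs, which were 0.06 and 0.12. The difference was -0.44 ± 0.11 (limma adjusted p = 0.0249). Sdha lost its call without CsA replicate 1 (adjusted p = 0.0537), CsA replicate 2 (0.0958), DMSO replicate 1 (0.0931) or DMSO replicate 2 (0.0988).

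Sdhc, which helps to anchor the complex in the membrane and bind haem, had 10.52, 10.61 and 11.11 in CsA arrays, against 10.91, 10.97 and 11.34 in DMSO arrays. Its groups overlapped, and in each group the array numbered 3 was the highest. The difference was -0.33 ± 0.18 (limma adjusted p = 0.277, and adjusted p = 0.0338 with the block). Sdhd, the other membrane anchor, differed by -0.27 ± 0.14 and did not pass in either fit (limma adjusted p = 0.237). Sdhb, the iron-sulphur subunit, averaged 12.62 ± 0.15 in CsA and 12.58 ± 0.12 in DMSO (SD, n = 3 each). Its 95% interval ran from -0.23 to 0.33, so a change larger than 1.5-fold in either direction lies outside it. Averaged over the 4 genes, complex II had 11.38 ± 0.17 in CsA and 11.63 ± 0.07 in DMSO (SD, n = 3 each), a difference of -0.25. Differences by replicate number were -0.25, -0.35 and -0.13.

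In complex III 0 of 7 subunits passed in limma (18.6% of all rows did). An unadjusted p under 0.05 was seen for 2 (31.2% of all rows), and with the block 1 was lower (28.7% of all rows called). Uqcrc1, a core-type structural subunit, had 11.21, 11.26 and 11.14 in CsA arrays, against 11.53, 11.41 and 11.72 in DMSO arrays. CsA values were all lower, by -0.35 ± 0.12 (limma adjusted p = 0.067, and adjusted p = 0.0494 with the block). Its partner Uqcrc2 had 12.13, 12.00 and 11.95 in CsA arrays, against 12.26, 12.35 and 12.30 in DMSO arrays, again without overlap. Uqcrc2 differed by -0.27 ± 0.10 and did not pass in either fit (limma adjusted p = 0.101, and adjusted p = 0.0702 with the block). The other subunits, catalytic or accessory, lay closer to their DMSO levels. Cyc1, which encodes cytochrome c1, averaged 12.45 ± 0.08 in CsA and 12.43 ± 0.07 in DMSO (SD, n = 3 each), with an interval from -0.22 to 0.26. Uqcrfs1, the Rieske iron-sulphur protein, differed by -0.09 ± 0.13. Among accessory subunits, Uqcr10 differed by 0.04 ± 0.14, Uqcrh by -0.006 ± 0.13 and Uqcrq by -0.05 ± 0.10.

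The row of Cycs, the gene of cytochrome c itself, averaged 4.33 ± 0.02 in CsA and 4.47 ± 0.13 in DMSO (SD, n = 3 each). It lay near the bottom of the scale, as did Atp5g1, a gene for the c ring of ATP synthase, at 3.33 ± 0.05 in CsA and 3.44 ± 0.15 in DMSO. Neither passed, and RMA compresses differences at such levels, so these rows say little of their transcripts. Probe sequences were not used here. In all, 9 of the 70 subunit rows had a mean level under 8.

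Among the 16 genes of complex IV 0 passed in limma (18.6% of all rows did). An unadjusted p under 0.05 was seen for 1 (6.25%, against 31.2% of all rows), and differences ran from -0.78 to 0.18. The 8 forms common to most tissues had a median difference of 0.06, and 7 of the 8 were positive. Averaged over these 8, the level was 13.32 ± 0.07 in CsA and 13.25 ± 0.03 in DMSO (SD, n = 3 each). Differences by replicate number were 0.07, -0.01 and 0.13. Cox6a1, a regulatory subunit and the largest positive difference among the 8, had 14.54, 14.55 and 14.49 in CsA arrays, against 14.37, 14.34 and 14.38 in DMSO arrays. Its groups did not overlap, yet at 0.17 ± 0.10 it did not pass (limma adjusted p = 0.294). Cox4i1, the ubiquitous form of subunit 4, differed by 0.07 ± 0.10, Cox6b1 by 0.04 ± 0.10, Cox7a2 by 0.03 ± 0.11 and Cox8a by 0.08 ± 0.12. Differences of such bright rows can be compressed on arrays, which was not tested here.

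The 8 tissue-restricted forms included the muscle forms Cox6a2, Cox7a1 and Cox8b, the lung form Cox4i2 and the testis forms Cox6b2, Cox7b2 and Cox8c. Their rows lay between 3.79 and 8.05 on average. Cox7a1 had 4.36, 4.49 and 4.40 in CsA arrays, against 4.56, 4.68 and 4.91 in DMSO arrays. Its difference of -0.30 ± 0.12 did not pass (limma adjusted p = 0.125, and adjusted p = 0.0689 with the block). Cox4i2 differed by 0.18 ± 0.15, Cox6a2 by 0.15 ± 0.13, Cox6b2 by -0.18 ± 0.15, Cox7b2 by -0.14 ± 0.14, Cox8b by 0.05 ± 0.10 and Cox8c by 0.11 ± 0.12. None of these 7 forms passed in either fit.

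Ndufa4l2, known as a hypoxia-induced paralogue of the complex IV subunit Ndufa4, had 6.45, 6.46 and 6.80 in CsA arrays, against 6.51, 7.33 and 8.20 in DMSO arrays. The DMSO arrays were far apart, with an SD of 0.85 against 0.20 in CsA, and the DMSO array numbered 1 lay among the CsA values. The difference was -0.78 ± 0.35 (limma adjusted p = 0.177, and adjusted p = 0.0387 with the block). Differences by replicate number were -0.05, -0.87 and -1.40. Ndufa4 itself differed by -0.04 ± 0.10.

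Complex V had 0 of 10 subunits past the threshold in limma (18.6% of all rows passed). It had 1 at an unadjusted p under 0.05 (31.2% of all rows). All 10 intervals lay inside a 1.5-fold change, among them that of the dim Atp5g1 row. Atp5a1, the alpha subunit of the catalytic head, had 12.28, 12.09 and 12.00 in CsA arrays, against 12.47, 12.48 and 12.41 in DMSO arrays. CsA values were all lower, by -0.33 ± 0.11 (limma adjusted p = 0.0736, and adjusted p = 0.0377 with the block). Atp5b, the catalytic beta subunit, had 13.65, 13.60 and 13.31 in CsA arrays, against 13.77, 13.77 and 13.62 in DMSO arrays, and its difference of -0.20 ± 0.12 did not pass in either fit. The 4 measured genes of the catalytic head all had negative differences, with a median of -0.13. At the other end of the range stood Atp5j2, a membrane subunit, at 0.12 ± 0.10, and Atp5g3 of the c ring, at 0.04 ± 0.11. Atpif1, the inhibitor of the synthase's reverse reaction and not a member, differed by 0.08 ± 0.15.

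**Figure D3:**
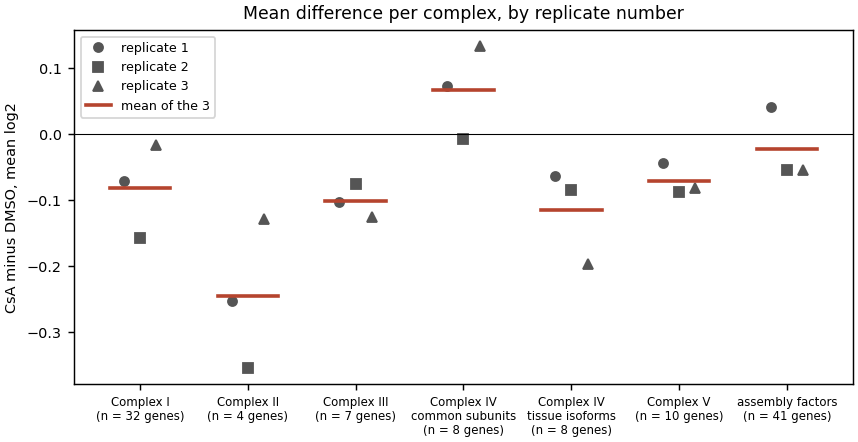
Difference between CsA and DMSO in the mean log2 value over the genes of complexes I, II, III and V, of both classes of complex IV, and of 41 assembly factors, for each replicate number and as the mean of the 3 (red line). Complexes I, II, III and V and the tissue forms of complex IV were below 0 at each number, complex II between -0.35 and -0.13, and the common subunits of complex IV lay between -0.01 and 0.13.

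Averaged over genes, complex I differed by -0.08, complex III by -0.10, complex IV by -0.02 and complex V by -0.07. The SD between arrays of a group was 0.10, 0.08, 0.09 and 0.07 for these. Complex II differed by -0.25 with an SD of 0.13. Taken by replicate number, the differences of complexes I, II, III and V were negative at all 3 numbers. With 1 array left out, complex I ran from -0.15 (without CsA replicate 3) to -0.03 (without CsA replicate 2), complex III from -0.14 (without CsA replicate 3) to -0.05 (without DMSO replicate 3), and complex V from -0.11 (without CsA replicate 3) to -0.03 (without DMSO replicate 3). When each array was centred on its median, complex IV changed sign to 0.03 and complex I was at -0.03. Complex IV also changed sign without DMSO replicate 3 (0.03) and without CsA replicate 2 (0.0035). Complex II kept its sign in each setting tried, between -0.34 and -0.19. The mean of the common subunits of complex IV stayed above 0, between 0.02 and 0.12. No test was made between complexes.

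Groups did not overlap for 19 of 70 subunits (27.1%, against 35.1% of all rows), 13 with CsA lower (15.3% of all rows were) and 6 with CsA higher (19.8% of all rows were). With the arrays taken by replicate number, 26 subunits were lower at all 3 numbers (37.1%, against 24.0% of all rows), and 17 were higher at all 3 (24.3%, against 32.8% of all rows). Across the 70 subunits, difference and mean level had a Spearman rho of 0.40 and a Pearson r of 0.22. Over the 61 subunits above a level of 8 they were 0.47 and 0.37. These genes share the same 6 arrays, and the relation is a description. Brighter rows, which include the common complex IV genes, had the higher differences.

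Cox7a2l had the lowest adjusted p of the 71 members. Its values were 11.35, 11.29 and 11.36 in CsA arrays, against 10.63, 10.81 and 10.93 in DMSO arrays. All CsA values exceeded all DMSO values by more than either group's SD, 0.04 in CsA and 0.15 in DMSO. It rose by 0.54 ± 0.11 (log2, SE, limma adjusted p = 0.011), and leaving out any 1 array kept the call, with adjusted p from 0.0098 to 0.0449. Cox7a2, the subunit it resembles, differed by only 0.03 ± 0.11.

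Assembly factors, which build the complexes without staying in them, had few calls at the adjusted threshold in limma, like the subunits, but spread more widely. Of 41 measured, 1 was lower, 1 was higher and 39 did not pass (4.88%, against 18.6% of all rows). An unadjusted p under 0.05 was seen for 13 (31.7%, against 31.2% of all rows and 15.7% of subunits). Groups did not overlap for 18 factors (43.9%, against 35.1% of all rows and 27.1% of subunits). The median size of the difference was 0.21, against 0.12 for the subunits, with similar median SEs of 0.13 and 0.12, and the gap between these lists was not tested. Their median level was 9.29, dimmer than the 11.90 of the subunits. In the blocked fit 8 factors were lower and 4 higher (29.3%, against 28.7% of all rows), a share near that of all rows.

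Ndufaf3, an early assembly factor of complex I, had 8.95, 8.68 and 9.05 in CsA arrays, against 9.28, 9.36 and 9.55 in DMSO arrays. It fell by 0.50 ± 0.13 on the log2 scale (limma adjusted p = 0.0301), and the call was lost without CsA replicate 1 (adjusted p = 0.0673), CsA replicate 2 (0.118), DMSO replicate 2 (0.0828) or DMSO replicate 3 (0.0733). Ndufaf2, a late factor of the same complex, moved the other way in value, with 9.76, 9.72 and 10.01 in CsA arrays, against 9.26, 9.10 and 9.68 in DMSO arrays. Its difference was 0.48 ± 0.16 (limma adjusted p = 0.0739, and adjusted p = 0.00971 with the block). For complex IV, Sco1, a copper chaperone, had 7.13, 7.12 and 7.24 in CsA arrays, against 6.49, 6.72 and 6.93 in DMSO arrays. Sco1 rose by 0.45 ± 0.13 (limma adjusted p = 0.0444), a call that held only without DMSO replicate 3 (adjusted p = 0.0182) when 1 array was left out, and otherwise had adjusted p from 0.0904 to 0.148.

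With the block, factors for complex IV were lower at Lrpprc, which stabilises mitochondrial mRNA (-0.47, adjusted p = 0.0123), Surf1, needed for haem insertion (-0.37, adjusted p = 0.0291), and Coa6, a copper-handling protein (-0.35, adjusted p = 0.0336). The other factors lower in that fit were Ndufaf7 (-0.33) and Foxred1 (-0.31) for complex I, Sdhaf4 (-0.30) for complex II and Bcs1l (-0.39), which inserts the Rieske protein of complex III. Those higher besides Ndufaf2 and Sco1 were Hccs, which attaches haem to cytochrome c (0.44, adjusted p = 0.0216), and Fmc1, a factor for ATP synthase (0.33, adjusted p = 0.0349). Factors of the same complex thus stood on both sides of 0, in complexes I and IV with calls in both directions. Sdhaf3, Ttc19 and Atpaf2, at 0.25, -0.21 and 0.22, did not pass in either fit.

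**Figure D4:**
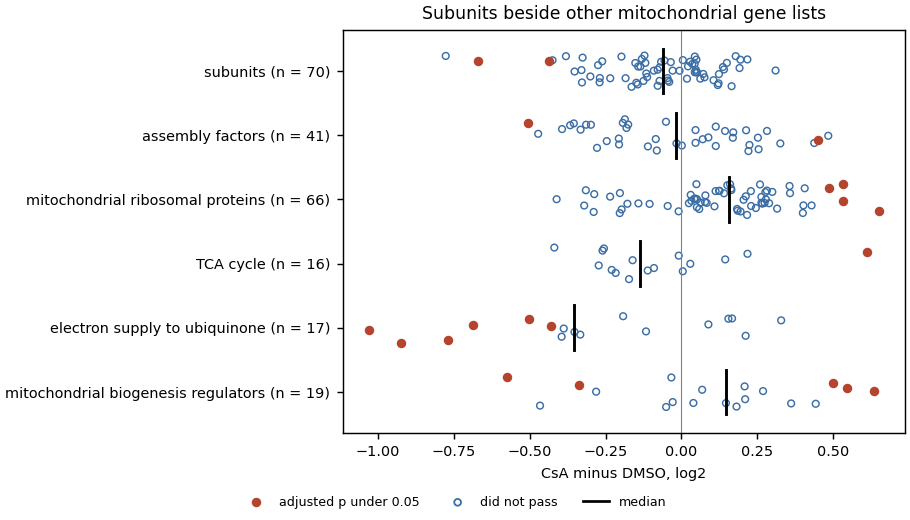
Difference between CsA and DMSO on the log2 scale for each gene of the subunits, the assembly factors and 4 other mitochondrial lists, with filled points for an adjusted p under 0.05 and a black line at each median. Subunits had 2 filled points of 70, and the genes that supply electrons to ubiquinone had 6 of 17.

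Lists of genes next to the chain differed in how many were called. Of 17 measured genes that feed electrons to ubiquinone or make it, 6 were lower and 0 higher in limma. This share was 35.3%, against 18.6% of all rows and 30.6% of the bright rows, and the median difference was -0.35. With the block, 10 were lower and 1 higher (64.7%, against 28.7% of all rows). Etfb, a subunit of the electron transfer flavoprotein of fatty acid oxidation, had 10.27, 10.08 and 10.61 in CsA arrays, against 11.30, 11.22 and 11.21 in DMSO arrays, and fell 1.90-fold. Sqor, which passes electrons from sulphide to ubiquinone, fell 1.71-fold. From the same entry route, picked after their values were seen, came Etfdh (2.04-fold lower) and Etfa (1.42-fold lower, a call lost without CsA replicate 2, adjusted p = 0.0542).

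Among 16 genes of the citric acid cycle and pyruvate dehydrogenase 1 was higher and 0 lower (6.25%, against 18.6% of all rows). Mdh2, the malate dehydrogenase that makes NADH for complex I, rose 1.53-fold (0.61 ± 0.12, limma adjusted p = 0.0086), and Suclg2 differed by -0.42 ± 0.14 (limma adjusted p = 0.0686, and adjusted p = 0.0116 with the block). Of the 16, 4 had an unadjusted p under 0.05 (25%, against 31.2% of all rows). With the block, 1 was higher and 1 lower (12.5%, against 28.7% of all rows).

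Regulators of mitochondrial gene expression had calls in both directions. Of 19, 3 were higher and 2 lower (26.3%, against 18.6% of all rows and 30.6% of the bright rows). Of those called, all but Pprc1 averaged under 8 in both groups, so the bright rows are an unlike comparison. Pprc1, a coactivator related to PGC-1, rose by 0.64 ± 0.13 (limma adjusted p = 0.0101), with the call lost without CsA replicate 2 (adjusted p = 0.0509). Gabpb1, a subunit of GABP, rose by 0.55 ± 0.13, with the call lost without CsA replicate 2 or DMSO replicate 1 (adjusted p = 0.0776 and 0.0686). The remaining 3 were picked after their values were seen, to complete the count. Nrf1, whose motif is shown above, had 7.00, 7.38 and 7.15 in CsA arrays, against 6.57, 6.68 and 6.79 in DMSO arrays, and rose by 0.50 ± 0.13. Its call was lost without CsA replicate 2, DMSO replicate 1 or DMSO replicate 2 (adjusted p from 0.0884 to 0.113). Ppargc1b, a coactivator, and Mterf2, a factor of mitochondrial DNA, were lower by -0.57 ± 0.16 and -0.34 ± 0.10, and each lost its call without any of 5 arrays. With the block, 5 of the 19 regulators were higher and 3 lower (42.1%, against 28.7% of all rows).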

How the data were processed

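Expression in 6 cultures was measured on arrays. The deposited log2 values were made by the authors, and the submitters' processing notes name RMA and R 2.11.0. The array type and probe set definition are not given in the sources used here. Only RNA with an integrity number above 8 was used, per the labels' protocols. The table held 16331 rows without missing values, of which 15136 had 1 symbol in the platform's gene table and 1195 are unnamed here.

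CsA was compared with DMSO in limma 3.58.1 (R 4.3.3, lmFit and eBayes, two-sided, no covariate), checked on simulated data, with Benjamini-Hochberg adjustment over all rows and a threshold of 0.05. Each difference is the CsA mean minus the DMSO mean of log2 values, given with limma's moderated SE, and folds are these differences turned back to the linear scale. The number of arrays, 3 per group, limits the precision. P-values set each difference against the spread between these samples, which without the block includes differences between replicate numbers.

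Same-numbered arrays deviated together from their group means over all rows (correlations of 0.398, 0.242 and 0.499). Between arrays of different numbers the correlations ran from -0.496 to 0.221. The highest of these, CsA replicate 1 with DMSO replicate 2, was close to that of the arrays numbered 2. Although the labels do not state shared animals, blocking on the replicate number was run as an alternative. Others were array weights, a trended prior variance, centring of the arrays, repeated quantile normalization, leaving out the dimmest 20% of rows, named rows only, a threshold of 0.01, and leaving out arrays. Named genes were those past the threshold with or without the block, the 2 highest and 2 lowest differences of each complex, all of complex II, the isoforms of complex IV, and the 2 smallest p-values of each assembly and mitochondrial list. Members, lists and tests were chosen with earlier results of these data known.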

Additional observations from a re-analysis of the deposited data

How the results depend on the processing

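Among all rows, 1559 were higher and 1478 lower, and array weights gave 2927 and 2263, a threshold of 0.01 gave 627 and 882, and the replicate block gave 2582 higher. Leaving out 1 array gave 764 to 1697 higher and 974 to 1522 lower. For subunits, 2 lower and 0 higher became 9 and 1 with the replicate block, 12 and 1 with array weights, and 5 and 1 without both arrays numbered 3. Repeated quantile normalization or centring gave 1 higher, and the threshold of 0.01 gave 0 lower. Subunits lower were 0 without CsA replicate 1 or 2, 1 without DMSO replicate 2 and 0 to 3 over all single arrays left out, with 0 higher. For assembly factors, 1 higher and 1 lower became 4 and 8 with the block, 4 and 9 with array weights, 3 and 2 without both arrays numbered 3, and 0 and 0 at the threshold of 0.01. Centring gave 3 higher and a trended prior 0. Leaving out 1 array gave 0 to 2 higher and 0 to 1 lower. No mean difference of a complex moved by more than the SD between arrays.

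Of 64 named genes, 19 of 957 values under the alternatives changed sign, none of them in a gene past the threshold. With array weights these were Atpif1 (-0.12), Cox7a2 (-0.0013) and Cox8a (-0.0077). Without both arrays numbered 3 they were Atpif1 (-0.078), Cox7b2 (0.013), Cox8a (-0.0090) and Cox8c (-0.0080). With 1 array left out, differences ran from -0.018 to 0.078 for Atp5g3, -0.030 to 0.22 for Atpif1, -0.042 to 0.074 for Cox7a2, -0.023 to 0.15 for Cox8a, -0.029 to 0.061 for Cyc1, -0.039 to 0.12 for Sdhb and -0.062 to 0.15 for Uqcr10. Signal near the bottom of the scale limits what the rows of Cycs, Atp5g1 and the tissue forms of complex IV can show. The cause of these shifts was not tested.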

Other observations

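Transcripts for carrying ATP and metabolites across the mitochondrial membranes included a marked fall. Slc25a4, which encodes an exchanger of ADP and ATP, had 10.95, 10.95 and 10.78 in CsA arrays, against 11.81, 12.07 and 11.57 in DMSO arrays, and was 1.90-fold lower (-0.93 ± 0.14, limma adjusted p = 0.00269). The groups did not overlap, and the call held with any 1 array left out. Vdac1, a pore of the outer membrane, differed by -0.43 ± 0.13 (limma adjusted p = 0.0559, and adjusted p = 0.0325 with the replicate block). Ppif, which encodes cyclophilin D, a matrix protein that binds cyclosporin A, differed by 0.52 ± 0.17 (limma adjusted p = 0.063, and adjusted p = 0.00653 with the block). Of the 5 genes measured in this list, 1 was lower and 0 higher in limma (18.6% of all rows were called), and 2 were lower and 1 higher with the block (28.7% of all rows).

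Mitochondrial ribosomal proteins, which translate the subunits encoded in mitochondrial DNA, had 4 of 66 genes higher and 0 lower in limma (6.06%, against 18.6% of all rows). Their median difference was 0.16, and 52 of 66 were positive, whereas 28 of 70 respiratory chain subunits were. Among all rows, 9196 of 16331 were positive. With the block, 12 were higher and 4 lower (24.2%, against 28.7% of all rows). Mrpl21 rose by 0.53 ± 0.14 (limma adjusted p = 0.0337) and Mrps30 by 0.53 ± 0.15 (adjusted p = 0.0381), and each kept its call only without DMSO replicate 3 when 1 array was left out. An NRF1 match stood in 9 of 58 promoters of these genes (15.5%) and a GABP match in 14 (24.1%), against 16.4% and 12.7% of the subunit promoters. The difference between both lists was not tested.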
